A study of Hordeum vulgare with 39 samples.

Results

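The genes described here are 137 barley (Hordeum vulgare) transcript entries that were most abundant in the seed maternal tissues at 8 days after pollination (DAP) and scarce in the endosperm and the embryo. They were chosen on read counts scaled to the total of each library (CPM, with the total set to 1000000) and averaged over the 3 libraries of each of 13 tissue-stage groups. A gene was a member if its highest group mean was that of the 8 DAP seed maternal tissues, if this mean was at least 20 CPM, and if it was at least 10 times the highest mean of any endosperm or embryo group. Of 83990 entries in the table, 948 were highest in this group at 20 CPM or more, and 137 of these (14.5%) also met the ratio. A limit of 200 members was not reached. The peak at 8 DAP and the excess over the filial tissues, as endosperm and embryo are called together, are therefore properties of the choice and are given as values without a test.

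The seed maternal tissues of a cereal grain are the layers that belong to the mother plant. They include the pericarp, which forms the outer wall of the fruit, the seed coat and what remains of the nucellus, the tissue in which the embryo sac grew. During early grain filling the nucellus breaks down by programmed cell death, and the nucellar projection and the vascular bundle beside it pass sugars and amino acids to the endosperm. The young pericarp is green and holds starch for a short time before its cells are lost.

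All plants were of the six-rowed spring cultivar Morex, grown in a climate chamber without any treatment named in the labels, and the grains were dissected by hand. The seed maternal tissues were sampled at 4, 8, 16 and 24 DAP, the endosperm at 4, 8, 16, 24 and 32 DAP and the embryo at 8, 16, 24 and 32 DAP, with 3 libraries in each of the 13 groups, 39 in all. The labels do not list the layers that made up the maternal sample, and they do not say how many plants or grains went into a library, so p-values measure the spread between these libraries, which may be technical. Total counts were 25882919 to 34193328 in the 12 seed maternal libraries, 6148131 to 36307192 in the 15 endosperm libraries and 15248254 to 36732347 in the 12 embryo libraries. TMM factors, which correct library totals for composition, were 1.21 to 1.35, 0.454 to 0.920 and 1.07 to 1.31 in these tissues. Replicate 3 of the 4 DAP seed maternal tissues stood apart from replicates 1 and 2 on the members. The counts of members called against 4 DAP are given with and without it. Other counts that use the 4 DAP libraries, such as those of the next highest stage and the shares beside other genes, are given with it only. The numbers in the library titles fall into 6 ranges that are not the same for all stages. The labels do not say what a range stands for. The identifiers could not be paired with gene names, since 0 of them matched the reference gene table, so the genes are given by identifier, the tissue labels were not checked against marker genes, and no function is assigned. CPM is not divided by transcript length, so an order of genes by CPM is an order of read counts and not of transcript numbers. In whole dissected tissue, fewer cells of a type and less RNA per cell cannot be told apart.

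The members together took 1.67%, 1.77% and 2.47% of the counts in the 4 DAP seed maternal libraries. They took 3.48%, 3.24% and 3.48% in those of 8 DAP. The 16 DAP libraries gave them 1.28%, 1.73% and 1.63%, and the 24 DAP libraries 0.873%, 0.742% and 0.857%. Each 8 DAP library thus lay above every other seed maternal library, and replicate 3 at 4 DAP was the nearest. In the filial tissues the group means ran from 0.0231% in the 8 DAP embryo to 0.0713% in the 24 DAP embryo. A few genes carried much of the maternal signal: the 12 highest together held at least 50% of the summed 8 DAP level, and the highest alone held 15.7% of it. The 8 DAP means ranged from 20.1 to 5320 CPM with a median of 79.8. They were at or above 100 CPM for 64 members and at or above 1000 CPM for 5.

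**Figure D1:**
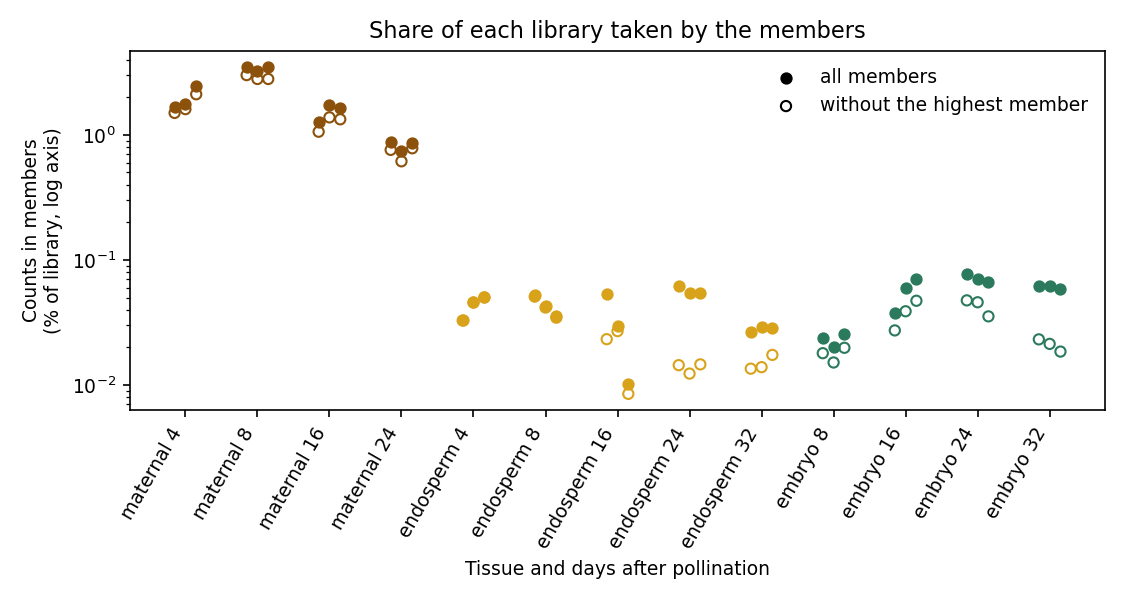
Share of all counts of a library that fell on the 137 members (percent, log axis), for each of the 3 libraries of each group, with the seed maternal tissues at the left. Filled points include all members and open points leave out HORVU.MOREX.r3.5HG0464400.1. The seed maternal libraries lie between 0.742% and 3.48%, and the gap between filled and open points is wide in the 24 DAP endosperm and the 32 DAP embryo.

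HORVU.MOREX.r3.5HG0464400.1 had the highest level of all members. Its seed maternal libraries held 1747, 1610 and 3579 CPM at 4 DAP, 4710, 4396 and 6855 CPM at 8 DAP, 2180, 3463 and 2969 CPM at 16 DAP and 1148, 1279 and 766 CPM at 24 DAP. Its 3 libraries at 8 DAP lay above all others, although replicate 3 at 4 DAP came close. It was also the member with the largest filial level, 427 ± 37.5 CPM in the 24 DAP endosperm and 395 ± 11.6 CPM in the 32 DAP embryo (mean ± SD, n = 3). It supplied 15.7% of the members' summed CPM in the 8 DAP seed maternal tissues, against 75.6% and 65.3% in these filial groups. The 3 endosperm libraries of 16 DAP were far apart on it, at 296, 24.5 and 17.6 CPM. In the embryo of 8, 16 and 24 DAP its means were 54.6 ± 2.94, 182 ± 71.3 and 284 ± 37.3 CPM (n = 3).

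HORVU.MOREX.r3.3HG0219240.1 had a narrower profile. It stood at 671, 768 and 1610 CPM at 4 DAP, 2595, 2305 and 2050 CPM at 8 DAP, 196, 684 and 628 CPM at 16 DAP and 128, 105 and 58.9 CPM at 24 DAP. Its highest filial group, the 24 DAP embryo, averaged 8.77 CPM. HORVU.MOREX.r3.6HG0629070.1 dropped furthest among the 5 members above 1000 CPM. It held 273, 282 and 405 CPM at 4 DAP, 1240, 1318 and 1809 CPM at 8 DAP, 20.7, 86.0 and 79.8 CPM at 16 DAP and 6.47, 0.586 and 1.37 CPM at 24 DAP. For both genes every 24 DAP library lay below every library of the other stages.

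The other 2 members above 1000 CPM hardly peaked. HORVU.MOREX.r3.5HG0425660.1 averaged 851 ± 85.8, 1190 ± 56.0, 997 ± 178 and 1168 ± 139 CPM over 4, 8, 16 and 24 DAP (n = 3). HORVU.MOREX.r3.1HG0031260.1 averaged 941 ± 42.9, 1037 ± 97.1, 974 ± 9.19 and 915 ± 56.7 CPM at the same stages (n = 3). For each gene the 8 DAP libraries overlapped with those of the next highest stage. The highest filial group means of these genes were 4.52 and 21.4 CPM.

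How steep the peak was varied between the members. The 8 DAP mean was 1.001 to 25.5 times the next highest seed maternal stage, with a median of 1.41. It was at least 2 times the next stage for 24 members and less than 1.2 times for 48. The next highest stage was 4 DAP for 66 members, 16 DAP for 68 and 24 DAP for 3. For 42 members all 3 libraries at 8 DAP lay above the 9 other seed maternal libraries, which was the case for 2.00% of the 29594 genes tested. The choice of members used this contrast, so nothing is read from the count. Over the 4 seed maternal stages, 55 members varied by more than 10-fold and 11 by more than 100-fold, while 11 stayed within 2-fold and 3 within 1.5-fold.

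The sharpest peak was that of HORVU.MOREX.r3.7HG0639230.1. It held 5.47, 6.60 and 3.30 CPM at 4 DAP, 174, 137 and 81.6 CPM at 8 DAP, 0.348, 0.150 and 0.837 CPM at 16 DAP and 0.0946, 0 and 0 CPM at 24 DAP. No library of another stage came near those of 8 DAP. It is 1 of 3 members with at most 3 counts in each of the 27 filial libraries, and its highest filial count was 2. The others were HORVU.MOREX.r3.1HG0009460.1, at 26.8 ± 7.19 CPM at 8 DAP with the second steepest peak, and HORVU.MOREX.r3.6HG0553940.1, at 23.6 ± 6.04 CPM (n = 3), which is named after its values were seen. At the other end, HORVU.MOREX.r3.3HG0227360.1 averaged 919 ± 155 CPM at 8 DAP and 919 ± 389 CPM at 4 DAP (n = 3). HORVU.MOREX.r3.2HG0193390.1 averaged 100 ± 4.12 CPM at 8 DAP and 99.7 ± 11.9 CPM at 16 DAP (n = 3). Neither of these 2 maxima stood out from its neighbouring stage.

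**Figure D2:**
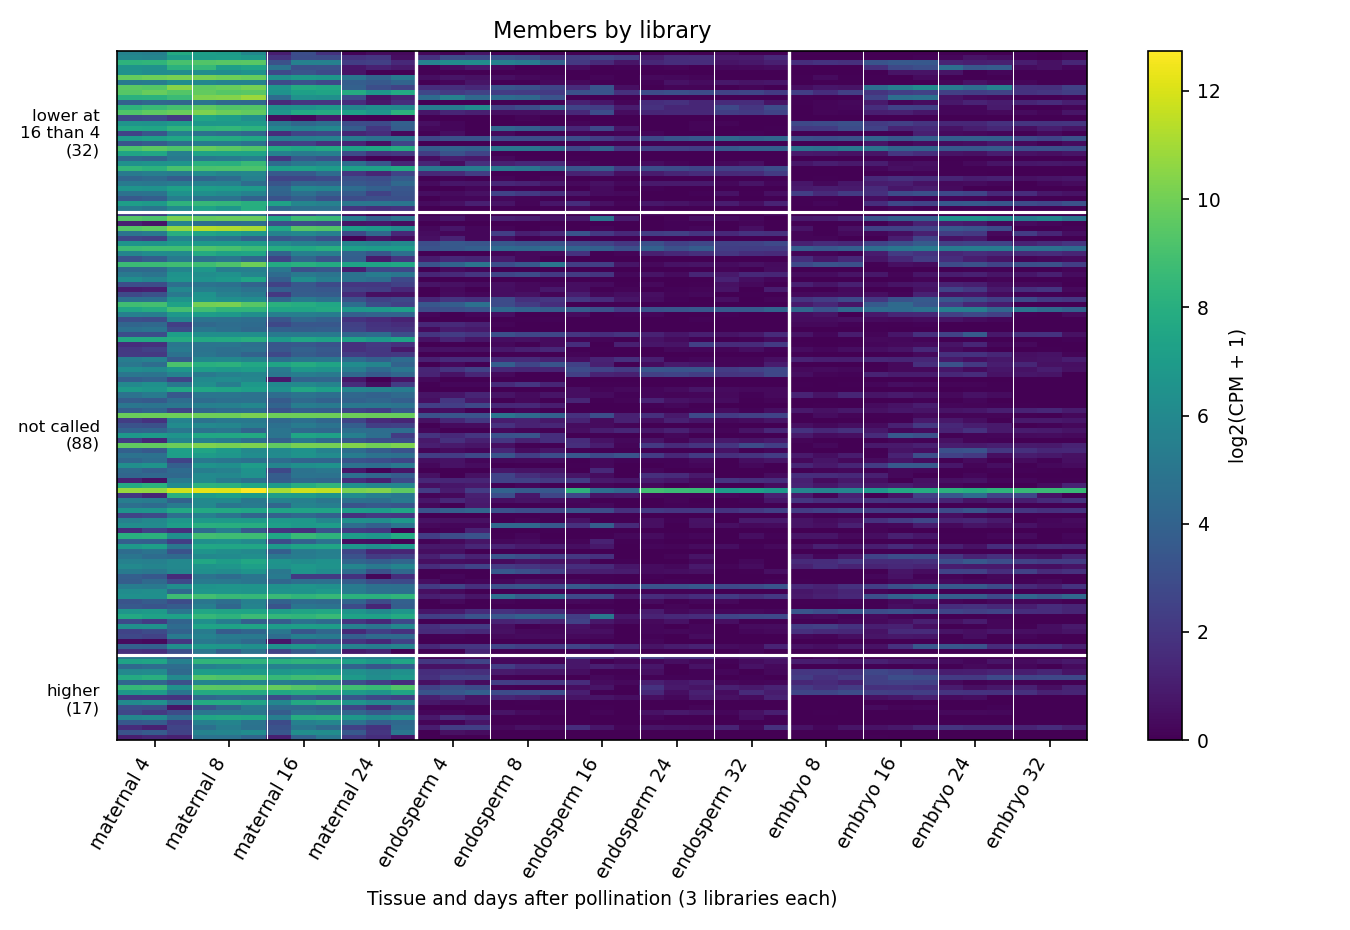
Levels of the 137 members, as log2(CPM + 1), in all 39 libraries, with 1 row per gene and seed maternal tissues, endosperm and embryo from left to right. Rows are grouped by the call of 16 over 4 DAP in the seed maternal tissues (32 lower, 88 not called, 17 higher) and ordered within a group by that ratio. The maternal columns are bright and most filial columns dark, and the third column, replicate 3 at 4 DAP, differs from its neighbours in many rows.

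Whether the members were more abundant before or after the peak was not set by their choice. Over the members, the level at 16 DAP against that at 4 DAP was lower for 32 and higher for 17 in a quasi-likelihood test in edgeR across all genes, with a gene called at a Benjamini-Hochberg adjusted p under 0.05 and a log2 fold change of at least 1 in size. Of all genes tested, 14.0% were called lower and 17.4% higher. Without replicate 3 at 4 DAP, 25 members were lower and 29 higher, so that the larger of these counts changed side, and without replicate 2 at 16 DAP 10 were higher. The shares over all genes come from the fit with all libraries and do not apply to the counts with a library left out. The median log2 fold change was -0.01 over the members and 0 over all genes tested. Over the members it was 0.33 without replicate 3 at 4 DAP and -0.25 without replicate 2 at 16 DAP. The 32 members called lower had medians of 72.5% of their 8 DAP level at 4 DAP, 17.9% at 16 DAP and 6.51% at 24 DAP. The 17 called higher had medians of 27.6% at 4 DAP, 85.3% at 16 DAP and 35.5% at 24 DAP. The 88 members with no call had medians of 55.4%, 56.2% and 20.0% at these stages.

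Among members lower at 16 DAP, HORVU.MOREX.r3.4HG0399940.1 showed the largest change. It held 1.08, 7.10 and 2.67 CPM at 16 DAP, against 48.5, 44.5 and 222 CPM at 4 DAP (log2 fold change -4.94, SE 0.77, edgeR adjusted p = 2.23e-05). HORVU.MOREX.r3.3HG0244590.1 followed with 2.63, 7.18 and 6.54 CPM at 16 DAP, against 59.1, 53.7 and 129 CPM at 4 DAP (log2 fold change -3.94, SE 0.549, edgeR adjusted p = 1.26e-06). The groups did not overlap for either gene, which was a condition of naming. Without replicate 3 at 4 DAP these values were -3.66 (edgeR adjusted p = 5.75e-05) and -3.35 (edgeR adjusted p = 6.04e-06), and without replicate 2 at 16 DAP the first was -5.89. In the other direction, the highest log2 fold change of any member was 3.64. The naming rule asked for a call, libraries that did not overlap and at least 20 CPM at 16 DAP. Under this rule the first was HORVU.MOREX.r3.2HG0115410.1. It held 12.2, 26.9 and 22.4 CPM at 16 DAP, against 5.47, 3.27 and 6.47 CPM at 4 DAP (log2 fold change 1.97, SE 0.445, edgeR adjusted p = 0.000685). HORVU.MOREX.r3.2HG0141490.1 held 190, 231 and 237 CPM at 16 DAP, against 105, 120 and 30.2 CPM at 4 DAP (log2 fold change 1.36, SE 0.43, edgeR adjusted p = 0.011). Without replicate 3 at 4 DAP the last value was 0.98 (edgeR adjusted p = 0.0552) and no longer passed.

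At 24 DAP many members were below their level before the peak. Against 4 DAP, 78 members were lower at 24 DAP and 2 were higher, where 15.6% of all genes tested were lower and 19.8% higher (edgeR, same threshold). The choice asked for the highest mean at 8 DAP, which leaves out genes that rise on to 24 DAP. Neither share over all genes is therefore a like measure for the members. Of 811 genes with the same peak at 20 CPM or more but under 10 times the highest filial mean, 25.8% were lower and 3.21% higher. Without replicate 3 at 4 DAP, 66 members were lower and 9 higher, to which the shares over all genes do not apply. The median log2 fold change was -1.71 over the members, -1.03 without that replicate, and 0.02 over all genes. This comparison and that of 16 with 4 DAP share the 4 DAP libraries. HORVU.MOREX.r3.4HG0399940.1 held 0.0946, 0.293 and 0.267 CPM at 24 DAP, against 48.5, 44.5 and 222 CPM at 4 DAP (log2 fold change -8.93, SE 0.973, edgeR adjusted p = 1.37e-07). HORVU.MOREX.r3.7HG0728480.1 held 0.599, 0 and 0 CPM at 24 DAP, against 85.2, 72.02 and 74.8 CPM at 4 DAP (log2 fold change -8.52, SE 0.895, edgeR adjusted p = 1.4e-07). Without replicate 3 at 4 DAP these values were -7.66 and -8.50, so the order of the genes turned. The 24 DAP level of HORVU.MOREX.r3.7HG0728480.1 rests on 19 counts in replicate 1. Its 3 libraries at 4 DAP overlapped with those of 8 DAP, where it averaged 79.8 ± 8.76 CPM (n = 3). The titles carry library numbers that fall into ranges, and the 4 DAP maternal libraries lie in another range than those of 16 and 24 DAP, so neither contrast has a value within 1 range. With a term for the range, fitted without the 4 and 32 DAP endosperm and the 32 DAP embryo, 1 member was higher and 7 were lower at 16 than at 4 DAP, and 1 was higher and 15 were lower at 24 than at 4 DAP. In that fit the median log2 fold change over the members was 0.34 at 16 against 4 DAP and -1.16 at 24 against 4 DAP. The errors of the named members were wider. For HORVU.MOREX.r3.3HG0244590.1 the value at 16 against 4 DAP was -3.62 with an SE of 1.62, and for HORVU.MOREX.r3.7HG0728480.1 that at 24 against 4 DAP was -6.96 with an SE of 2.89. HORVU.MOREX.r3.4HG0399940.1 had no usable error in that fit, with an SE of 19441 at 16 against 4 DAP, so its values there are not read. The term and the groups left out were not tested apart. Among filial libraries in that fit, only replicate 3 of the 24 DAP embryo shared the range of the 16 and 24 DAP maternal libraries. The term for that range thus rests on 1 embryo library, in which 43 members reached 1 CPM. The counts of called members in that fit are therefore not read as corrected for the range. The shares over all genes do not apply to them.

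The 2 members that were higher at 24 than at 4 DAP are named after their values were seen. HORVU.MOREX.r3.2HG0115410.1 held 17.2, 10.7 and 15.9 CPM at 24 DAP, against 5.47, 3.27 and 6.47 CPM at 4 DAP (log2 fold change 1.503, SE 0.44, edgeR adjusted p = 0.0061). HORVU.MOREX.r3.1HG0057750.1 held 4.61, 2.70 and 21.5 CPM at 24 DAP, against 2.11, 1.23 and 5.16 CPM at 4 DAP (log2 fold change 1.69, SE 0.676, edgeR adjusted p = 0.0399). The groups overlapped for the second gene. At 8 DAP these genes had means of 32.5 and 31.7 CPM.

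Between 16 and 24 DAP the change ran one way among the calls. At 24 DAP 58 members were lower than at 16 DAP and 0 were higher, where 3.94% of all genes tested were lower and 4.18% higher (edgeR, same threshold). The choice left out genes that rise on to 24 DAP, so neither share over all genes is a like measure for the members. Of 811 genes with the same peak at 20 CPM or more but under 10 times the highest filial mean, 18.5% were lower and 0.123% higher. At an unadjusted p under 0.05, 83 members were lower and 1 higher, and DESeq2 called 57 lower and 0 higher. The shares over all genes do not apply to these settings. The median log2 fold change was -1.43 over the members and 0.04 over all genes tested, and 12 members had a value above 0. All 6 libraries of these stages lie in 1 range of library numbers, and with the term for the range 54 were lower and 0 higher. HORVU.MOREX.r3.4HG0332840.1 had the largest change among the members named by the rule, with 0.694, 0.0977 and 0.634 CPM at 24 DAP, against 5.80, 27.4 and 32.3 CPM at 16 DAP (log2 fold change -5.49, SE 0.803, edgeR adjusted p = 2.13e-05). HORVU.MOREX.r3.6HG0601160.1 held 2.05, 0.391 and 3.74 CPM at 24 DAP, against 64.1, 63.5 and 50.9 CPM at 16 DAP (log2 fold change -4.84, SE 0.499, edgeR adjusted p = 2.07e-07). Neither gene's groups overlapped, which was a condition of naming. Without replicate 3 at 24 DAP the second value was -5.54.

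Of the 5 most abundant members, HORVU.MOREX.r3.3HG0219240.1 (log2 fold change -2.34, edgeR adjusted p = 0.00179) and HORVU.MOREX.r3.6HG0629070.1 (log2 fold change -4.44, edgeR adjusted p = 5.23e-05) fell between 16 and 24 DAP. Against 4 DAP these genes were also lower at 24 DAP, with log2 fold changes of -3.41 (edgeR adjusted p = 3.4e-06) and -6.84 (edgeR adjusted p = 2.97e-08). HORVU.MOREX.r3.5HG0464400.1 had a value of -1.40 with an SE of 0.576 and did not pass (edgeR adjusted p = 0.126). HORVU.MOREX.r3.5HG0425660.1 and HORVU.MOREX.r3.1HG0031260.1 had values of 0.26 and -0.06 and did not pass either, each with an SE below 0.4.

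**Figure D3:**
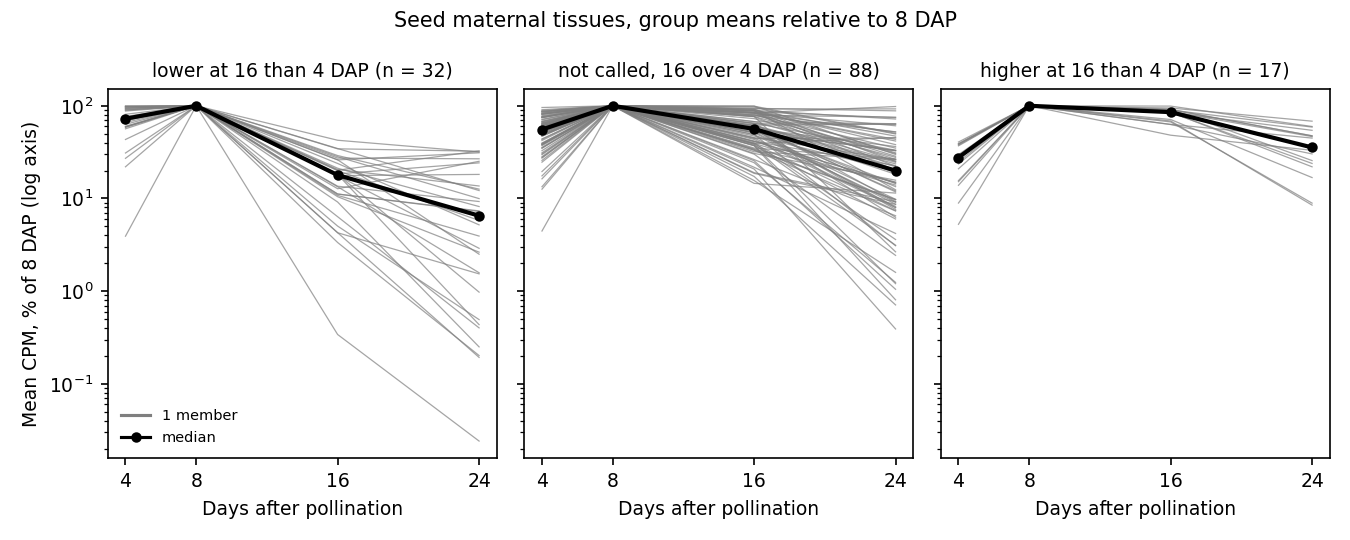
Group mean CPM of each member in the seed maternal tissues as a percentage of its own 8 DAP mean (log axis), against days after pollination. Thin lines are members, the black line is their median, and the panels hold the 32 members lower at 16 than 4 DAP, the 88 not called and the 17 higher. The medians at 24 DAP are 6.51%, 20.0% and 35.5%.

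The members were set beside the 811 genes that were also highest at 8 DAP in the seed maternal tissues at 20 CPM or more but lay under 10 times the highest filial mean. Of the members 56.9% were lower at 24 than at 4 DAP and 42.3% lower at 24 than at 16 DAP, against 25.8% and 18.5% of the 811. Higher calls in these contrasts were few in both sets, at 1.46% and 0% of the members and 3.21% and 0.123% of the 811. At 16 against 4 DAP, 23.4% of the members were lower and 12.4% higher, against 9.99% and 8.38% of the 811. In endosperm against embryo at 8 DAP, 33.6% of the members were higher and 13.9% lower, against 42.2% and 11.96% of the 811. These differences in share were not tested. At the ratio of 10, the members just inside were HORVU.MOREX.r3.4HG0405230.1 at 41.9 CPM at 8 DAP and HORVU.MOREX.r3.1HG0027940.1 at 94.9 CPM, with ratios of 10.0 and 10.1. The genes just outside were HORVU.MOREX.r3.5HG0479660.1 at 30.4 CPM and HORVU.MOREX.r3.7HG0660850.1 at 86.4 CPM, with ratios of 9.98 and 9.82.

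The 4 DAP libraries did not agree on the members. In replicate 3 at 4 DAP, 46 members (33.6%) stood above 2 times the mean of replicates 1 and 2, and 34 (24.8%) stood below 0.5 times it. Among the 18532 tested genes with a mean of at least 1 CPM at 4 DAP, these shares were 8.93% and 12.1%. HORVU.MOREX.r3.1HG0083140.1, named after its values were seen, showed the widest spread, with 3.13, 1.53 and 264 CPM in replicates 1, 2 and 3 at 4 DAP, against a mean of 133 CPM at 8 DAP. The 4 DAP level was at a median of 73.8% of the 8 DAP mean in replicate 3 and of 43.0% in replicates 1 and 2. In that replicate 42 members exceeded their own 8 DAP mean, and 4 did so in the mean of the other replicates. The median coefficient of variation between replicates over the stages 4, 8, 16 and 24 DAP was 50.8%, 16.8%, 25.0% and 34.1%.

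The 34 members that were low in replicate 3 ranged from 0.0875 to 0.466 times the mean of replicates 1 and 2, with the upper end limited by the cut at 0.5. The middle 50% of them lay between 0.251 and 0.335 times the mean of replicates 1 and 2, with a median of 0.289. Those that were high spread more widely, with a middle 50% of 3.03 to 10.1 times and a highest value of 113. At 16 DAP the low set stood at a median of 77.3% of its 8 DAP level, the high set at 41.1% and the 57 members within 2-fold at 37.0%. At 24 DAP these medians were 27.1%, 10.7% and 20.2%. In endosperm against embryo at 8 DAP, 4 of the 34 were called higher in endosperm and 12 lower. In the set of 46 the counts were 16 and 2, and in that of 57 they were 26 and 5. Of all genes tested, 26.0% were higher and 20.6% lower. At 24 against 16 DAP 14 of the 34, 18 of the 46 and 26 of the 57 were lower, where 3.94% of all genes tested were lower. These sets were drawn after the values were seen, and the differences between them were not tested.

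**Figure D4:**
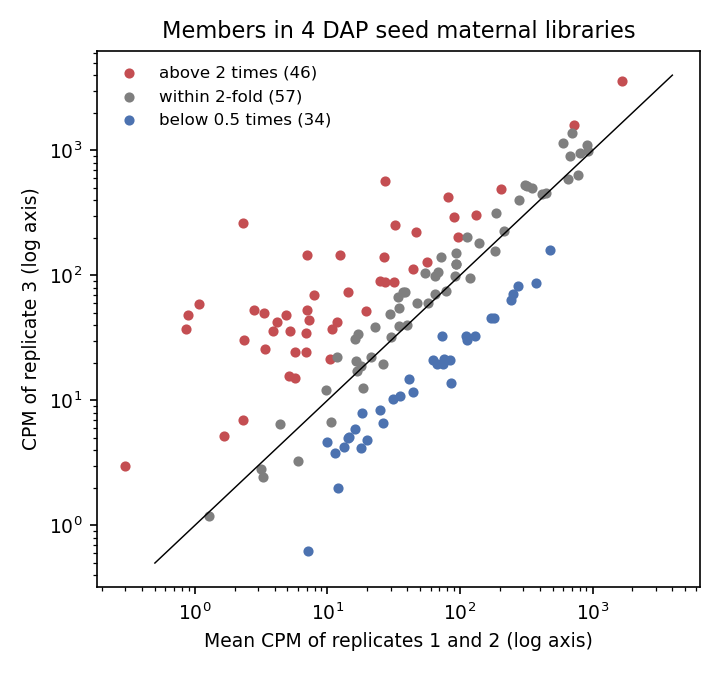
CPM of each member in replicate 3 of the 4 DAP seed maternal tissues (vertical, log axis) against the mean CPM of replicates 1 and 2 (horizontal, log axis), with the line of equality. Of the 137 members, 46 lie above 2 times that mean, 57 within 2-fold and 34 below 0.5 times, the last at 0.0875 to 0.466 times.

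Single libraries also stood apart at later stages, by less. Replicate 1 at 16 DAP held the lowest value of its group for 91 members, and replicate 2 at 24 DAP for 75. Of all genes tested, 36.8% and 41.0% had their lowest value in these libraries. At 8 DAP replicate 3 was lowest for 70 members, against 37.5% of all genes. Its library number falls in another range than those of replicates 1 and 2, and its summed share, 3.48%, equalled that of replicate 1. Without the highest member the shares in replicates 1, 2 and 3 were 3.00%, 2.80% and 2.80%. Without replicates 1, 2 and 3 at 8 DAP in turn, 134, 138 and 156 genes met the choice, of which 122, 128 and 125 were among the 137.

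In the filial tissues the members were low. Single filial libraries held 23 to 60 of them at 1 CPM or more, and at 8 DAP the median member was at 0.336 CPM in endosperm and 0.187 CPM in embryo. The highest of the 9 filial group means was at least 1 CPM for 98 members and at least 10 CPM for 23. The 8 DAP maternal level was between 10 and 20 times the highest filial mean for 48 members, between 20 and 100 times for 55 and above 100 times for 34. That highest filial group was an 8 DAP one for 34 members, 23 in endosperm and 11 in embryo, the 4 DAP endosperm for 37, and the embryo at 16 or 24 DAP for 24 and 18.

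The choice capped both filial tissues but set no order between them. At 8 DAP, 46 members were higher in endosperm than in embryo and 19 were lower, where 26.0% of all genes tested were higher and 20.6% lower (edgeR, same threshold). These counts are 33.6% and 13.9% of the members, and with the term for the range of library numbers they were 45 and 19. In the endosperm 44 members had at most 3 counts in every 8 DAP library and in the embryo 58, and 29 were at this floor in both. The edgeR median log2 fold change, with genes at the floor included, was 1.29 over the members and 0.10 over all genes tested. The 44 members at the floor in 1 of the tissues were then set to their bound against 3 counts in a library. For some of these the bound lay below 1-fold, down to 0.42, so they entered with the sign opposite to their counts. The median over 108 members was then 0.78, and it is not read as a bounded form of 1.29. The value over all genes was taken without bounds and is no like measure for it.

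HORVU.MOREX.r3.2HG0111820.1 held 13.02, 5.39 and 8.92 CPM in the 8 DAP endosperm and 0 counts in the 3 embryo libraries of that stage. It was at least 46.3-fold higher in endosperm, reckoned against 3 counts in a library (edgeR adjusted p = 0.000236). HORVU.MOREX.r3.1HG0050440.1 held 34.3, 29.4 and 16.3 CPM in endosperm, 1497 counts in all, and 1 count over the 3 embryo libraries. The ratio was 1713, with an exact 95% binomial interval of 307 to 67706 that covers counting error only (edgeR adjusted p = 2.45e-16). Its seed maternal mean at 8 DAP was 550 ± 14.5 CPM (n = 3). HORVU.MOREX.r3.3HG0236780.1 held 0 counts in the endosperm libraries, against 5.71, 6.63 and 7.57 CPM in the embryo, so it was at least 35.2-fold lower in endosperm (edgeR adjusted p = 1.07e-10). HORVU.MOREX.r3.3HG0305840.1 held 2.52, 1.92 and 1.56 CPM in endosperm, against 9.44, 6.97 and 9.88 CPM in embryo (log2 fold change -1.76, SE 0.325, edgeR adjusted p = 2.73e-05). Of the 5 most abundant members, HORVU.MOREX.r3.5HG0464400.1 was lower in endosperm (log2 fold change -1.72, SE 0.593, edgeR adjusted p = 0.0143) and HORVU.MOREX.r3.1HG0031260.1 higher (log2 fold change 7.28, SE 0.628, edgeR adjusted p = 5.35e-11). HORVU.MOREX.r3.6HG0629070.1 was also higher, with 21.0, 18.3 and 8.46 CPM in endosperm and 878 counts in all, against 3 counts over the embryo libraries (edgeR adjusted p = 1.37e-07). The other 2 were not called. Neither filial tissue was thus the lower one for all members.

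**Figure D5:**
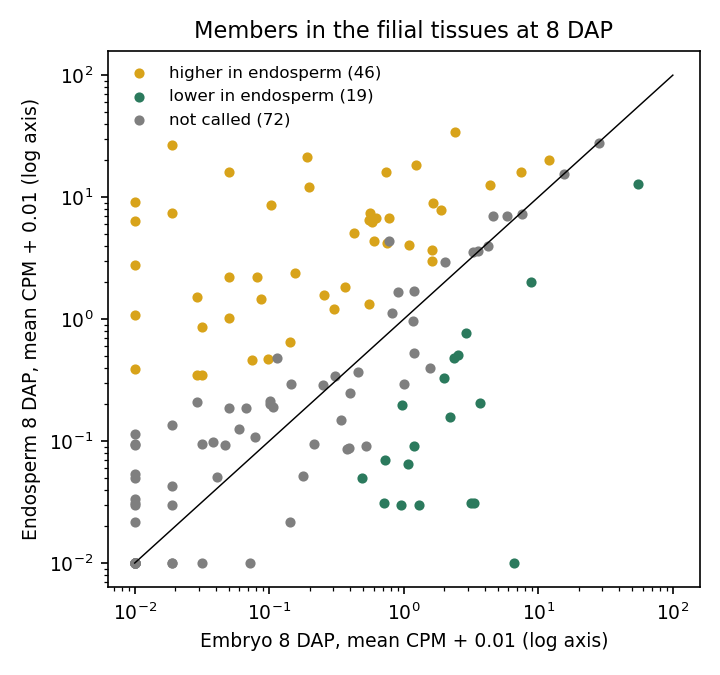
Mean CPM of each member in the 8 DAP endosperm (vertical) against the 8 DAP embryo (horizontal), each with 0.01 added and on a log axis, with the line of equality. Of the 137 members, 46 were higher in endosperm, 19 lower and 72 not called, and the higher ones reach the left edge, where the embryo had 0 counts.

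The maternal excess was smaller at later stages. At 16 DAP 114 members were at least 10 times as high in the seed maternal tissues as in both filial tissues of that stage, and at 24 DAP 79. At 4 DAP, where the endosperm was the filial tissue sampled, 125 were. At 24 DAP 8 members lay below the higher filial tissue, and that was the embryo for 7 of them. HORVU.MOREX.r3.3HG0227400.1 showed this at the highest level, and it was chosen after its values were seen. At 24 DAP it held 40.0, 14.4 and 28.7 CPM in the seed maternal tissues, against 90.2, 92.1 and 75.5 CPM in the embryo, and at 8 DAP 835, 922 and 899 CPM in the seed maternal tissues, against 0.918, 0.964 and 1.61 CPM in the embryo. The order of the tissues was turned round between these stages, with no overlap of libraries at either. These contrasts were not tested, since the choice used them in part.

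The identifiers carry a chromosome label and a serial number. Members were spread over all 7 chromosomes, with 30 on chromosome 5H (21.9% of members, 15.8% of genes tested) and 13 on chromosome 7H (9.49% and 15.1%). By their place among the gene numbers of the table, 20 members lay in 9 runs in which neighbouring members were at most 10 genes apart. Members of such runs could share reads if they are near-identical copies, which the table does not show. The tightest run of 3 spans HORVU.MOREX.r3.1HG0089260.1, HORVU.MOREX.r3.1HG0089280.1 and HORVU.MOREX.r3.1HG0089290.1 on chromosome 1H. Their means at 8 DAP were 63.9 ± 6.65, 195 ± 8.19 and 42.3 ± 12.3 CPM (n = 3). All 3 were low at 4 DAP, at 11.2, 48.6 and 8.83 CPM. Later they parted: at 24 DAP the first averaged 0.453 CPM and the others 92.7 and 19.6 CPM.

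At 16 DAP HORVU.MOREX.r3.1HG0089260.1 held 0.811, 15.4 and 16.8 CPM in replicates 1, 2 and 3, HORVU.MOREX.r3.1HG0089280.1 held 40.6, 234 and 255 CPM and HORVU.MOREX.r3.1HG0089290.1 held 6.61, 45.8 and 57.6 CPM. Replicate 1 was the lowest for these genes, as for most members at that stage. HORVU.MOREX.r3.3HG0227360.1 and HORVU.MOREX.r3.3HG0227400.1, 4 genes apart on chromosome 3H, averaged 919 and 885 CPM at 8 DAP, 167 and 340 CPM at 16 DAP and 8.97 and 27.7 CPM at 24 DAP in the seed maternal tissues. In the embryo they differed, with 35.8 and 85.9 CPM at 24 DAP. For 3 of the 137 members the table holds more than 1 transcript entry of the gene.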

How the data were processed

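The authors deposited raw read counts per transcript entry, 1 column for each of 39 libraries. HISAT2 2.1.0, SAMtools and Subread 1.5.2 are named in the submitters' processing notes, without their roles. The build and the treatment of strand and of multi-mapped reads are not given in the sources used here. Libraries were grouped by the labelled tissue and stage. The members, lists and naming rule were chosen with earlier results of these data known.

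CPM was computed over library totals. Members were selected as stated in the report. Genes kept by filterByExpr (29594, all 137 members among them) were tested with edgeR 4.0.16 (R 4.3.3) in 1 model with a coefficient per group, 26 residual degrees of freedom, TMM factors, robust glmQLFit and glmQLFTest, and p-values were adjusted over all genes tested. SEs of log2 fold changes come from the quasi-likelihood F statistic. The 4 contrasts that the choice of members had not fixed were tested. The fit was checked on simulated counts. Per contrast, up to 2 called members of each direction were named, the largest fold changes among those with non-overlapping libraries and at least 20 CPM (5 CPM in the filial contrast) in the higher group. The 5 highest members, those with extreme peak ratios, those at the threshold and the largest run were also named. Alternatives included DESeq2 1.42.0, other scaling and filters, and leaving out libraries.

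No sequences or gene names are printed, because the identifiers matched no entry of the reference gene table, and the planned gene lists and tissue markers were not used. Same-numbered replicates were not paired by the labels.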

Additional observations from a re-analysis of the deposited data

How the results depend on the processing

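Median-ratio and upper-quartile factors, library size alone, the stricter filter, DESeq2, dropping the fold minimum and fitting the tissues alone left all 8 counts of called members within 1.5 times of those reported. With library size alone the median log2 fold change of all genes in endosperm over embryo was shifted by -0.152, and with the term for the library range that of 24 over 4 DAP by 0.109. With no low-count filter the members higher at 24 than at 4 DAP numbered 1. A term for the range of the library number in the titles left 1 member higher and 7 lower at 16 than at 4 DAP, and 1 higher and 15 lower at 24 than at 4 DAP. That fit also left out 3 groups and tested 28585 genes. Its term for the range of the 16 and 24 DAP maternal libraries rests on replicate 3 of the 24 DAP embryo alone. The 6 fold changes of named members that lost their call there kept their sign, and the cause was not tested. For HORVU.MOREX.r3.4HG0399940.1 the value at 16 against 4 DAP was -2.33 with an SE of 19441. At 24 against 4 DAP it was -6.30 with no SE. The sign of these values is therefore not read. With the replicate block, 18 members were higher and 30 lower at 16 than at 4 DAP, and no count moved by over 1.5 times. Same-numbered libraries did not deviate together in the maternal contrasts (correlations of -0.199 to 0.0169) and had correlations of 0.0579 to 0.173 between endosperm and embryo.

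Leaving out 1 library at a time gave 10 to 29 members higher and 25 to 37 lower at 16 than at 4 DAP. It gave 2 to 9 higher and 66 to 82 lower at 24 than at 4 DAP, 40 to 55 lower at 24 than at 16 DAP, and 44 to 46 higher and 16 to 20 lower in endosperm than in embryo. The fewest higher at 16 DAP, 10, came without replicate 2 at 16 DAP and the most without replicate 3 at 4 DAP. The shares over all genes do not apply to these counts. Of 192 values of named members under other settings, 185 kept their call, 7 kept their direction without passing, 6 of them under the range term, and 0 changed sign. The values of HORVU.MOREX.r3.4HG0399940.1 are among these 6, and their direction is not read.

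The choice of members gave 251 genes at 5 times the filial tissues, 89 at 20 times, 91 at 50 CPM, 115 with TMM-scaled CPM and 143 with group medians. With TMM-scaled CPM 97 of the 137 were kept, and of the 40 lost 28 missed the ratio and 12 the level alone. The share of counts in the members at 8 DAP, 3.40% ± 0.140, was 2.75% with TMM-scaled totals and 2.86% without the highest member, and 3.36% to 3.48% without 1 library.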
